A study of Mus musculus with 8 samples.

Results

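The Iroquois homeobox genes Irx1 to Irx5 and 5 genes of the ventricular conduction system and its gap junctions, Gja1, Gja5, Gjc1, Cntn2 and Etv1, were followed through the ventricles of mouse pups. These 10 genes were taken by name from the 37982 genes of the authors' deposited table. For 9 of them a row carried the symbol alone. Irx2 stood only in a row joined with Irx2.1, a second gene model at the same coordinates, and that joined row is used for Irx2 below.

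Ventricles were collected at postnatal day 7 from C57BL/6 pups after the atria had been cut away, so the samples are bulk muscle with all its cell types. There were 2 wild-type samples, 3 from double mutants and 3 from triple mutants. As known from the study, both mutant groups carried altered alleles of Mkl2, a coactivator of serum response factor, and of Myh7, the beta myosin heavy chain gene, and only the triple mutants carried an altered allele of Nkx2-5, the cardiac homeodomain factor, as well. The labels give neither the zygosity nor the sex of the pups, and nothing in them says whether samples of a group came from separate litters. Mkl2 had, in the authors' deposited table, FPKM values of 30.9, 30.6 and 26.0 (wild type, double and triple mutant), Nkx2-5 had 43.6, 53.1 and 55.2, and Myh7 had no estimate. No difference of Mkl2 or Nkx2-5 was called, and since the kind of allele is not in the labels these levels do not check them. The table holds 1 FPKM (fragments per kilobase of transcript, scaled to the library) per gene and group, so the value of each sample, the spread between samples and the read depth are unknown. Whether 2 groups overlap can therefore not be seen, and differences are called from the authors' Cuffdiff test at a q value (p adjusted for all genes and comparisons) under 0.05. That p measures only the spread Cuffdiff modelled between the samples entered.

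Iroquois proteins are homeodomain transcription factors encoded in 2 genomic clusters, and the heart uses them to set regional differences between its chambers and layers. Irx4 marks ventricular muscle, Irx5 is known for repressing the potassium channel gene Kcnd2 across the ventricular wall, and Irx3 is known for raising Gja5 and lowering Gja1 in the fast-conducting His-Purkinje fibres. Connexins form the gap junction channels that pass the impulse from cell to cell: Gja1 encodes the main connexin of working ventricular muscle, Gja5 that of Purkinje fibres, atrium and arterial endothelium, and Gjc1 the connexin of nodal cells and early heart muscle. Cntn2, an adhesion molecule, marks Purkinje cells, and the transcription factor Etv1 is needed for their rapid conduction.

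Of the 5 Iroquois genes 4 stood higher in double mutant than in wild-type ventricle past the threshold, and 3 of those 4 also in triple mutant ventricle. The rises ranged from 1.51-fold for Irx3 to 2.89-fold for Irx1 in the authors' deposited table. Irx4 passed in neither comparison, nor did any connexin or Etv1. No member differed past the threshold between triple and double mutant. For the double mutant against wild type, 4 of the 8 tested members were called, all higher, where 2.65% of all tested genes were called, 1.89% as higher and 0.767% as lower. For the triple mutant against wild type the count was 3 of 8, all higher, against 1.52% of all tested genes called, 1.16% as higher and 0.362% as lower. For triple against double mutant it was 0 of 8 by Cuffdiff, with 1 member at an unadjusted p under 0.05, where 1.25% of all tested genes were called, 0.704% as higher and 0.547% as lower. The median log2 fold change of these 8 tested members was 0.52, 0.41 and -0.17 in these comparisons, in that order, while the median over all tested genes was -0.00 in each. The first 2 comparisons share the wild-type samples, so their calls are not independent of each other. The members were chosen with earlier results of these data known, so the shares are a description and not a test of the set. Cntn2 was too low to be tested and Gja1 has no estimate in the mutants, so neither enters these counts.

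The calls rest on the deposited p values, which are smaller than the deposited test statistic would give if read as a z score. Read that way, an alternative chosen after seeing the data, only Irx1 in the double mutant stayed under the threshold (q = 0.00906), and q rose to 0.748 or more for every other called member.

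**Figure D1:**
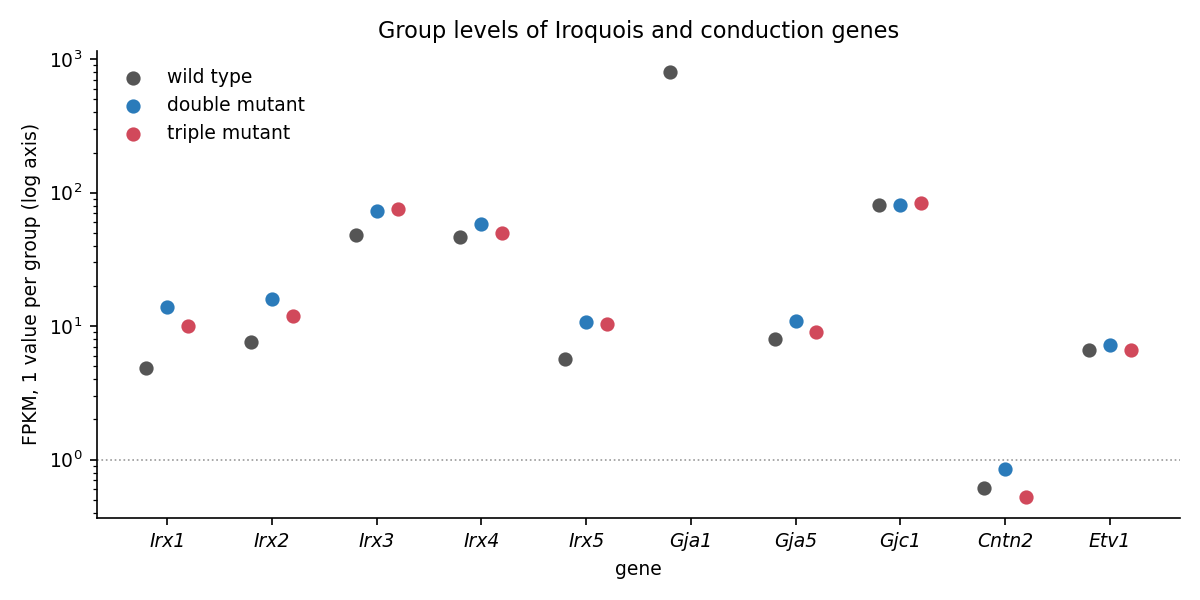
Level of each member in FPKM (log axis), 1 point per genotype group, with no error because the table gives 1 value per group. The dotted line marks an FPKM of 1. Gja1 is drawn for wild type only, from a row whose status marks a failed estimate, since it is listed at 0 in both mutant groups. Irx1, Irx2, Irx3 and Irx5 lie lowest in wild type, and Gjc1 lies between 81.0 and 83.5 in all groups.

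Irx1 showed the widest range of the family. Its locus (ENSMUSG00000060969, mm9 chromosome 13, 72095369 to 72101171) appeared in the authors' deposited table with FPKM values of 4.83 in wild-type, 13.9 in double mutant and 10.1 in triple mutant ventricle. Wild type was thus the low group, and the triple mutant lay between it and the double mutant. In the authors' deposited table the log2 fold change of Irx1 was 1.53 in the double mutant (2.89-fold) and 1.06 in the triple mutant (2.09-fold) against wild type, each at the lowest p the test gives, 5e-05, and q = 0.0066. From that p the 95% interval reached at most from 1.73-fold to 4.82-fold in the double mutant and from 1.46-fold to 2.98-fold in the triple mutant. Irx1 ranked 9 among the 246 higher calls by fold in the double mutant, and 18 among 151 in the triple mutant. Between the mutants Irx1 stood lower in the triple mutant by a log2 fold change of -0.47 in the authors' deposited table (p = 0.00765, q = 0.164 by Cuffdiff), which did not pass.

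Irx2 lies on the same chromosome (ENSMUSG00000001504, mm9 chromosome 13, 72766245 to 72771644), 665 kb beyond Irx1. The joined row was listed in the authors' deposited table with FPKM values of 7.62 in wild-type, 15.9 in double mutant and 12.0 in triple mutant ventricle, the same order of groups as Irx1. The rise in the double mutant was 2.09-fold in the authors' deposited table (q = 0.0114 by Cuffdiff), with a 95% interval of 1.44-fold to 3.03-fold. The triple mutant stood 1.58-fold above wild type, which did not pass after adjustment (p = 0.0227, q = 0.285 in the authors' deposited table). Its interval of 1.07-fold to 2.33-fold overlaps that of the double mutant, and triple against double mutant gave q = 0.591 in the authors' deposited table, so the loss of the call does not show that the mutants differed. Irx2.1, which has a row of its own as well, was listed at 0.135, 0.0727 and 0.0724.

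Irx3 was among the most abundant Iroquois genes of these ventricles, with Irx4. In the authors' deposited table Irx3 (ENSMUSG00000031734, mm9 chromosome 8, 94322424 to 94331438) appeared with FPKM values of 48.0 in wild-type, 72.4 in double mutant and 75.4 in triple mutant ventricle. The 2 mutant values lay close together, and triple against double mutant differed by 1.04-fold with an interval of 0.862-fold to 1.26-fold. Against wild type Irx3 rose 1.51-fold for double and 1.57-fold for triple mutants of the authors' deposited table, each at q = 0.0066 by Cuffdiff. The locus is shared with D230002A01Rik, which GENCODE M21 names Irx3os and types as antisense, by Ensembl ID. That gene was listed at 1.54, 1.23 and 3.0 and was not called (q = 0.983 for double mutant and 0.923 for triple mutant against wild type in the authors' deposited table). The libraries were stranded per the labels, but whether the counting used strand is not given in the sources used here, so reads of Irx3 and its antisense partner may not have been told apart.

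Irx5, 550 kb from Irx3 (ENSMUSG00000031737, mm9 chromosome 8, 94881695 to 94885353), rose by nearly the same factor in both mutants. It was listed in the authors' deposited table with FPKM values of 5.64 in wild-type, 10.7 in double mutant and 10.3 in triple mutant ventricle. The fold changes of 1.90 and 1.83 against wild type each had q = 0.0066 in the authors' deposited table. The mutants differed from each other by 0.966-fold, with an interval of 0.773-fold to 1.21-fold.

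Irx4, the ventricular marker of the family, stayed nearest to wild type of the 5 genes in both comparisons. In the authors' deposited table it was listed with FPKM values of 46.8 in wild-type, 58.0 in double mutant and 50.0 in triple mutant ventricle (ENSMUSG00000021604, mm9 chromosome 13, 73397945 to 73407068). The double mutant stood 1.24-fold above wild type (p = 0.0231, q = 0.287 by Cuffdiff in the authors' deposited table) and the triple mutant 1.07-fold (q = 0.897). The interval of 1.03-fold to 1.49-fold in the double mutant overlaps the 1.24-fold to 1.84-fold of Irx3. Whether the change of Irx4 differed from that of another Iroquois gene was not tested, since that needs values per sample. Irx6, the remaining gene of the family, was listed at no more than 0.0618 in any group and was not tested.

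Y-linked transcripts stood higher in the same groups as the Iroquois genes. The 4 Y-linked genes measured had a median log2 fold change of 1.53 for double and 1.05 for triple mutants against wild type. The RNA helicase gene Ddx3y had, in the authors' deposited table, FPKM values of 4.82, 13.99 and 10.02, values close to those of Irx1. The summed FPKM of the 4 genes was 21.9 in wild-type, 73.7 in double mutant and 54.2 in triple mutant ventricle. Xist, the X inactivation RNA, was listed at 1.21 for double and 88.2 for triple mutants. Its rows with wild type carry a status meaning that Cuffdiff met more fragments than it would process, so wild type has no estimate. Xist was called higher in the triple than in the double mutant (q = 0.0066 in the authors' deposited table). By Cuffdiff Ddx3y was called in both comparisons with wild type and Uty for the double mutant alone, while Kdm5d and Eif2s3y were called in neither. Eif2s3y nevertheless stood 4.02-fold and 3.05-fold above wild type in double and triple mutant, and Kdm5d 2.87-fold and 2.07-fold. The labels do not give the sex of the pups, while the levels of these sex-linked transcripts differed between the groups. For the differences of Irx1, Irx2, Irx3 and Irx5, a part of sex makeup cannot be told apart from that of genotype with group values. The part of sex in them was not tested.

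**Figure D2:**
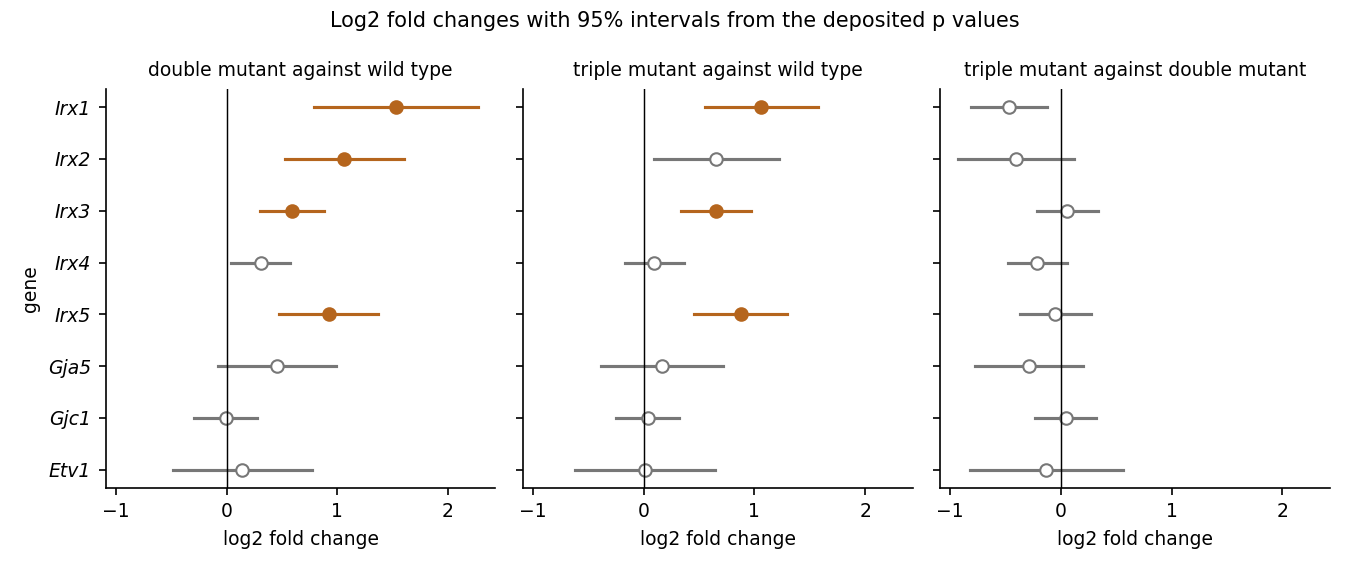
Log2 fold change of the 8 tested members in each comparison, with 95% intervals taken from the deposited p values. Filled points passed a q of 0.05 and open points did not. Where p stood at its lowest possible value the interval is the widest that p allows. The filled points are Irx1, Irx2, Irx3 and Irx5 for the double mutant, and Irx1, Irx3 and Irx5 for the triple mutant.

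Within a group, FPKM is per length of transcript, so levels of the genes can be set side by side. In wild type the order was Irx3, Irx4, Irx2, Irx5 and Irx1, with Irx3 and Irx4 nearly equal (a ratio of 1.03) and the step from Irx4 to Irx2 a ratio of 6.14. In the double mutant Irx1 stood above Irx5 by a ratio of 1.30, and in the triple mutant the lowest pair, Irx5 and Irx1, differed by a ratio of 1.03. With 1 value per group, none of these neighbours can be said to differ beyond the spread between samples. The summed FPKM of the 5 genes was 113 in wild-type, 171 in double mutant and 158 in triple mutant ventricle. Irx4 made up 41.5% of that sum in wild type, 33.9% for double and 31.7% for triple mutants, and Irx1 4.28%, 8.15% and 6.39%. The ratio of Irx3 to Irx4 was 1.03, 1.25 and 1.51 in the same order of groups. These sums and shares are descriptions with no test.

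**Figure D3:**
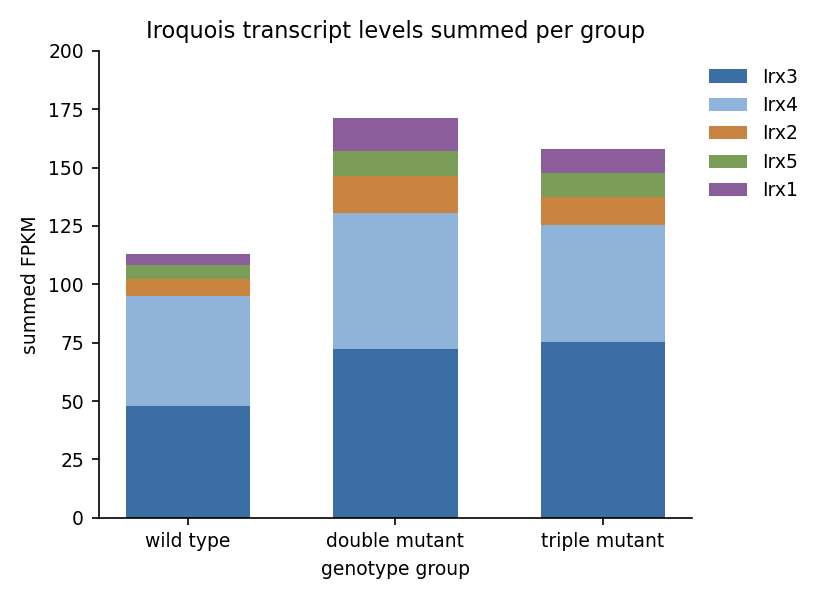
Summed FPKM of Irx1 to Irx5 in each genotype group, as stacked bars from 0, with 1 value per gene and group and no error. The sums are 113, 171 and 158, and Irx3 with Irx4 makes up most of each bar.

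The windows before the start sites of Irx2, Irx3 and Irx4 are shown because these are the Iroquois members found in the promoter table. Each is the 250 bases before the start in the RefSeq table of GRCm38.p6, a newer build than the mm9 of the expression table, printed 5′ to 3′ on the strand of the gene. Capitals mark AAGTG on either strand (printed as CACTT where it lies on the opposite strand), the core of the element bound by NKX2-5.
Irx2 (chr13:72628570-72628819, plus strand): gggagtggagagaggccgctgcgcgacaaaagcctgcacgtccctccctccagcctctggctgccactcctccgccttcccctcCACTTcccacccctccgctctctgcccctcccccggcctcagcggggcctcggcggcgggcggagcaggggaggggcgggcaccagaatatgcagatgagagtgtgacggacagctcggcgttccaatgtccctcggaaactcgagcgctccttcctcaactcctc
Irx3 (chr8:91801655-91801904, minus strand): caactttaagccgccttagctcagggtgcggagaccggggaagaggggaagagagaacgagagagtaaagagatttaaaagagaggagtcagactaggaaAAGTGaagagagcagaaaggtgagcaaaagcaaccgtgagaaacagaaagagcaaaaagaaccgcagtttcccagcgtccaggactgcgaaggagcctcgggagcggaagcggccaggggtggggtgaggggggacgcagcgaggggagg
Irx4 (chr13:73260247-73260496, plus strand): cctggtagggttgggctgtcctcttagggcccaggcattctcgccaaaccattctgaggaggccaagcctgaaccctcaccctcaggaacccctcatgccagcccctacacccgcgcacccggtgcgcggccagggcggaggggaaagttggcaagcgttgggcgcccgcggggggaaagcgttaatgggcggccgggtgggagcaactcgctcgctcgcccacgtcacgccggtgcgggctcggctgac
The windows of Irx2 and Irx3 hold 1 AAGTG each, at bases -166 to -162 and -150 to -146 from the start, and that of Irx4 holds none. Across the 32841 windows of this length, 40.7% hold AAGTG as well, so its presence sets these windows apart in no way. The T-box core AGGTGT (11.8% of windows), the Iroquois sequence ACANNTGT (6.31%), the CArG box of serum response factor (1.47%) and TATAA (22.8%) were also searched on both strands. None of the 3 windows holds one. Over all 8 windows found for 7 of the 10 members, AAGTG stood also before Gja5 and Cntn2, and TATAA before 1 of the 2 starts of Etv1. Such matches are letters in a window and not binding sites.

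None of the genes lying around the 2 Iroquois clusters was called. On chromosome 13 the complex I subunit gene Ndufs6, 50.2 kb beyond Irx4, and the mitochondrial ribosomal gene Mrpl36 had log2 fold changes between -0.06 and 0.08 against wild type. On chromosome 8 the tested genes Rpgrip1l, Gm3235, Fto and Mmp2 lay between -0.32 and 0.13. None of these 6 was called in either comparison with wild type, by q or at an unadjusted p under 0.05 (Cuffdiff). The demethylase gene Fto, whose introns are known to hold long-range enhancers of Irx3, was listed at 52.2, 55.1 and 57.1 in the authors' deposited table (q = 0.938 and 0.849 against wild type for double and triple mutant). The noncoding gene 4933436C20Rik, named Crnde in GENCODE M21 by Ensembl ID, lies 1.68 kb from Irx5 and was listed at 1.79, 2.62 and 2.56. It stood 0.55 and 0.52 above wild type on the log2 scale in double and triple mutant without passing (q = 0.590 and 0.638 in the authors' deposited table). These neighbours were chosen after their values were seen.

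**Figure D4:**
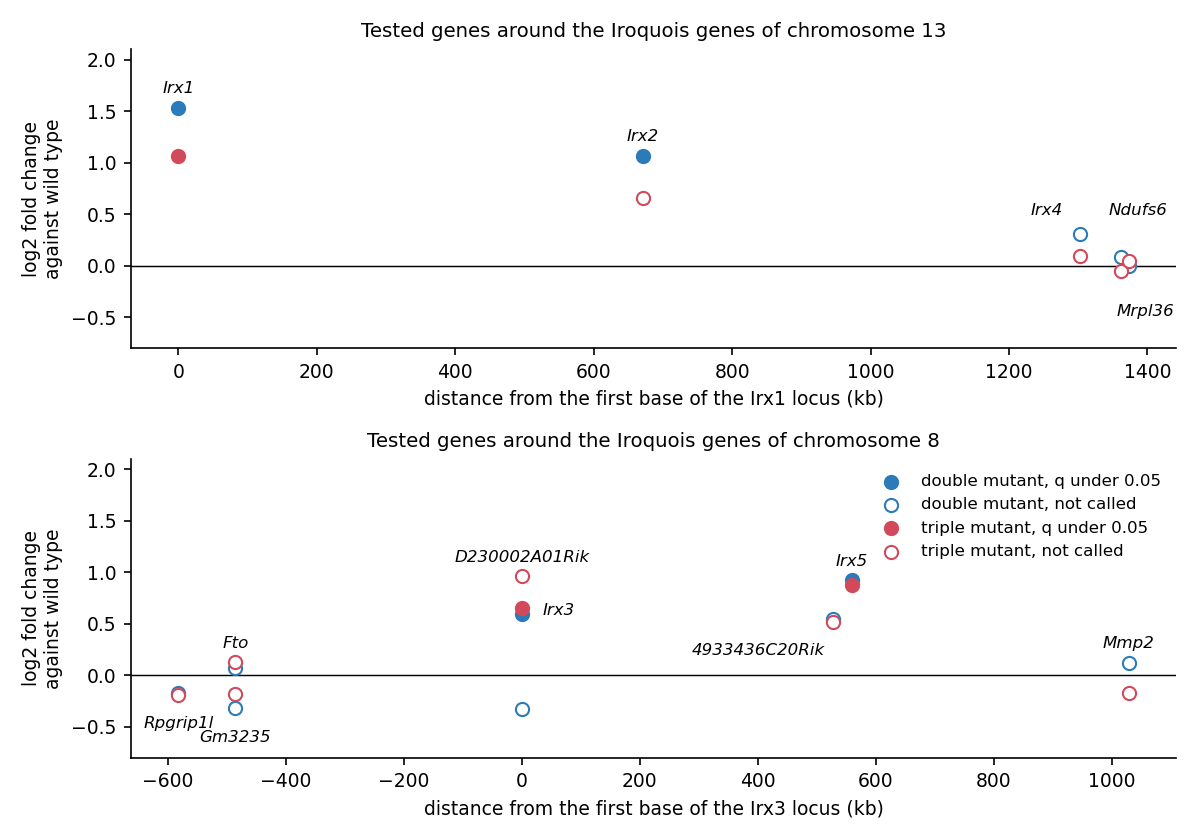
Log2 fold change against wild type of every tested gene around the Iroquois genes of chromosome 13 (top) and chromosome 8 (bottom), by distance in kb from the first base of the Irx1 or Irx3 locus. Blue is the double and red the triple mutant, and filled points passed a q of 0.05. The filled points are all Iroquois genes, and Irx4 at the right of the top panel is open in both groups.

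Gap junction and Purkinje genes gave no call. Gjc1 (ENSMUSG00000034520, mm9 chromosome 11, 102660893 to 102681014) appeared in the authors' deposited table with FPKM values of 81.5 in wild-type, 81.0 in double mutant and 83.5 in triple mutant ventricle. Its intervals against wild type were 0.818-fold to 1.21-fold for double and 0.843-fold to 1.24-fold for triple mutants, narrower than those of Gja5. Gja5 had, in the authors' deposited table, FPKM values of 8.02, 11.0 and 9.01, with q = 0.520 for the double and 0.920 for the triple mutant against wild type. The Gja5 intervals, 0.949-fold to 1.98-fold and 0.766-fold to 1.65-fold, are wide enough to hold changes of the size seen for Irx3. The file gives Gja5 a locus of 279 kb on chromosome 3 (ENSMUSG00000057123, mm9, 96602686 to 96881339) that it shares with other genes, among them 4930442L01Rik, Cd160, Gpr89 and Pdzk1, so its counts may have been split or joined with theirs.

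Gja1 could not be compared. Gja1 (ENSMUSG00000050953, mm9 chromosome 10, 56097106 to 56110225) had an FPKM of 803 for wild type in the authors' deposited table, and is listed at 0 in both mutant groups with a status meaning that Cuffdiff met more fragments there than it would process. That 0 is therefore not a level, and the wild-type value stands in a row of the same status. Among 14 intercalated disc genes, which tie heart muscle cells end to end, 6 including Gja1 had such failed estimates, and none of the 8 tested was called in any comparison by Cuffdiff, with 1 or 2 at an unadjusted p under 0.05 in each. The most abundant of those tested, the plakoglobin gene Jup, had, in the authors' deposited table, FPKM values of 197, 317 and 215 (q = 0.143 for double mutant against wild type). Ctnnb1, the beta-catenin gene, was listed at 219, 212 and 210, in a shared locus.

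Etv1 (ENSMUSG00000004151, mm9 chromosome 12, 39505967 to 39594802) appeared in the authors' deposited table with FPKM values of 6.58 in wild-type, 7.25 in double mutant and 6.62 in triple mutant ventricle. Its intervals of 0.713-fold to 1.71-fold and 0.649-fold to 1.56-fold against wild type are wide. For the triple mutant it was the widest of the 8 tested members on the log2 scale. Cntn2 (ENSMUSG00000053024, mm9 chromosome 1, 134406002 to 134439517) was listed at 0.610, 0.857 and 0.528 in the authors' deposited table and was not tested. A transcript of few cells is diluted in bulk ventricle, and fewer Purkinje cells cannot be told apart from less RNA per cell for Cntn2 or any other member.

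Other connexins and conduction genes were read from lists drawn up by known function. Of 16 other connexins 3 were tested and none was called, with 1 at an unadjusted p under 0.05 in each comparison with wild type and 0 between the mutants (Cuffdiff). These were the arterial connexin Gja4 (15.1, 14.6 and 12.7 in the authors' deposited table), the lens connexin Gja3 (8.67, 11.7 and 13.2, q = 0.0695 for triple mutant against wild type) and Gjd3 (3.77, 1.96 and 1.34). Of 24 conduction regulators and channels, 19 were tested for the double mutant against wild type and 18 for the other mutant group. In each comparison 1 was called, Tbx5, a T-box factor required for conduction system function. It had, in the authors' deposited table, FPKM values of 6.96, 10.6 and 9.83, a rise of 1.52-fold in the double mutant (q = 0.0066) and 1.41-fold in the triple mutant (q = 0.044). The median log2 fold change of this list was 0.14 and 0.03 in these comparisons. Counting Tbx5, 6 and 4 of its genes had an unadjusted p under 0.05 there (Cuffdiff). None of its 18 genes tested between the mutants was called (4 at an unadjusted p under 0.05). Tbx3, the T-box repressor that keeps nodal cells from becoming working muscle, had FPKM values of 10.6, 8.74 and 6.98 in the authors' deposited table (q = 0.0727 for the triple mutant against wild type, in a shared locus). The potassium channel subunit Kcne1 (234, 224 and 244) and the homeodomain-only protein Hopx (94.1, 99.7 and 98.6, in a shared locus) were the most abundant of the list in the authors' deposited table. The pacemaker channel gene Hcn4 was listed at 0.630, 1.28 and 0.738 and was not tested.

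Genes described as downstream of Iroquois factors did not follow them in one direction. Kcnip2, the subunit that forms the fast transient outward current with Kcnd2, was listed in the authors' deposited table with FPKM values of 46.4 in wild-type, 68.4 in double mutant and 46.2 in triple mutant ventricle. It rose 1.47-fold in the double mutant (q = 0.0114) and was lower in the triple than in the double mutant by 0.57 on the log2 scale (q = 0.0066) in the authors' deposited table. Kcnd2 had, in the authors' deposited table, FPKM values of 3.99, 2.94 and 2.79, lower in both mutants without passing (q = 0.185 and 0.105). The chemokine gene Cxcl12 had FPKM values of 43.4, 45.6 and 32.1 in the authors' deposited table and fell between double and triple mutant by 0.51 on the log2 scale (q = 0.0458). The repolarising channel gene Kcnh2 was listed at 55.4, 65.1 and 62.0 in the authors' deposited table with no call. In all, 1 of 5 tested genes of this list was higher in the double mutant against wild type, 0 of 5 were called in the triple mutant against wild type (2 at an unadjusted p under 0.05), and 2 of 5 were lower in the triple than in the double mutant.

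Of 4 tested genes known from the trabecular layer, the inner wall from which Purkinje fibres arise, Nppa alone was called. These are levels in bulk ventricle, and Nppa, a natriuretic peptide gene, is an atrial marker too. It had, in the authors' deposited table, FPKM values of 919, 505 and 829, lower in the double mutant than in wild type by 0.86 on the log2 scale (q = 0.0066) and 1.64-fold higher in the triple than in the double mutant (q = 0.0066), in a shared locus. Nppb had FPKM values of 150, 148 and 158 in the authors' deposited table. None of 4 compact wall genes was called in any comparison, with 1 to 3 at an unadjusted p under 0.05. Of these, Hspd1 was listed at 110, 113 and 160 and Tbx20 at 109, 88.1 and 95 in the authors' deposited table.

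Marker lists of other cell types were read beside these results, and their part in the values of the members was not tested. Atrial muscle is known to make Gja5. Of 9 atrial markers 4 stayed below an FPKM of 1 in every group, among them the light chain gene Myl7 and the calcium pump regulator Sln, both below 0.2. The other 5 were tested, and only Nppa was called. They include Nr2f2 (47.5, 58.7 and 49.2 in wild type, double and triple mutant of the authors' deposited table), a gene of veins as well, and the atrial light chain gene Myl4 (7.30, 7.95 and 9.88, in a shared locus). The summed FPKM of the 9 was 984, 581 and 897, mostly Nppa. Arterial endothelium is another known source of Gja5. Its 7 markers summed to 93.2, 99.5 and 87.6, led by Efnb2 (33.0, 39.5 and 35.8) and Gja4, and none was called (1 at an unadjusted p under 0.05 in each comparison, Cuffdiff).

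The 6 general endothelial markers summed to an FPKM of 500, 498 and 437, led by Cdh5 (204, 218 and 188) and Pecam1 (172, 159 and 144), with no call and 1 at an unadjusted p under 0.05, for the triple mutant against wild type. Their median log2 fold change was -0.07 and -0.23 in double and triple mutants against wild type, and -0.23 between the mutants. Of 6 fibroblast markers 5 were tested, led by Col1a1 (183, 218 and 163) and Dcn (117, 125 and 109). None was called, 3 had an unadjusted p under 0.05 between the mutants, and the median log2 fold change there was -0.27. Among 5 smooth muscle and pericyte markers the smooth muscle actin gene Acta2 was called, higher in the triple than in the double mutant by 0.59 on the log2 scale (q = 0.0066 in the authors' deposited table). Its FPKM values were 199, 169 and 254, while those of Rgs5, a pericyte gene, were 233, 272 and 213 with no call. Neurons and glia are known to make Cntn2. Of 8 neuron and Schwann cell markers with an estimate 6 stayed below 1 in every group, and Dbh (1.13, 2.43 and 2.02), a noradrenaline synthesis gene, was tested and not called. Of 8 markers of ventricular muscle 7 had failed estimates, so the labelled tissue could be read only from Mpped2, at 9.67, 11.0 and 10.05.

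For each called member the genes with the most similar pair of log2 fold changes against wild type were sought among the 8536 genes whose FPKM reached 5 in every group. The measure was the Euclidean distance over the pair, from 3 group values that share the wild-type samples. Nearest to Irx1 were the Y-linked demethylase gene Uty (distance 0.18), Trappc1 (0.19) and Rap1gap2 (0.25). Ddx3y was outside the search because its wild-type FPKM of 4.82 missed that minimum, as did the 4.83 of Irx1 itself. The log2 fold changes of Ddx3y against wild type were 1.54 for double and 1.06 for triple mutants. Those of Irx1 were 1.53 and 1.06, so Uty is the nearest only among the genes searched. Nearest to Irx2 were Gm10076, the proteoglycan gene Srgn and Pcp4l1, all within 0.03. Nearest to Irx3 were the membrane linker gene Ezr, the splicing factor gene Sf3a1 and the leiomodin gene Lmod3, all within 0.04. Nearest to Irx5 were the lipid peroxidase gene Gpx4, Eid1 and AA672651, within 0.05. None of these neighbours of Irx5 was called against wild type (q = 0.193 or more by Cuffdiff). Rap1gap2, near Irx1, was not called either (q = 0.118 for double and 0.588 for triple mutant by Cuffdiff). Nor was Gm10076, near Irx2 (q = 0.0641 and 0.358), and Uty was not called for the triple mutant (q = 0.0911). Eid1 has a second row (35.6, 37.3 and 38.0) with log2 fold changes of only 0.07 and 0.10 for double and triple mutant. Ezr, Lmod3 and Pcp4l1 were called in both comparisons with wild type (q = 0.0066).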

How the data were processed

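Ventricular RNA of 8 samples was sequenced as stranded total RNA libraries, per the labels' protocols. Per the submitters' processing notes the tools named are Cuffdiff 2.2.1, Cufflinks 2.2.1, STAR 2.5.2 and CASAVA 1.8, and the build is mm9. Which annotation, strand setting or normalization was used is not given in the sources used here. What the authors deposited is 1 FPKM value per gene and group, and for each of 3 comparisons a p-value, a q-value, the Cuffdiff statistic (a score) and a log2 fold change. Read depth is unknown.

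Log2 ratios of FPKM match the deposited log2 values (largest difference 4.7215e-05), and the deposited q equals a Benjamini-Hochberg adjustment over all tested rows of the 3 comparisons (largest difference 5.26e-07). The median ratio of the z that a deposited p-value implies to the deposited statistic is 1.76, so the statistic was not used as a z score. Standard errors were taken as the log2 fold change divided by the z of the p-value, and 95% intervals from these assume normal error. At the lowest p-value, 5e-05, they are upper limits of the width. Rows marked as having too many fragments (2036 rows of 709 genes) count as missing. Coordinates are those of the file, 1-based. Kcnh2, Hspd1, Pecam1, Col1a1, Mpped2 and Xist also lie in shared loci, and Fto shares its locus with Gm3235. Python 3.11.15 with pandas 2.3.3 and scipy 1.17.1 was used, and the adjustment was tested on simulated data.

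No new test across samples was possible. The members and lists were chosen with earlier results of these data known. Named were all members, every gene of the context lists at q under 0.05, the 2 most abundant tested genes of each list, genes sharing a member's locus, and the 3 genes nearest to each called member. Some genes under this rule are not reported here. Hcn4, Tbx3, Kcnd2, Gjd3, Myl4, Myl7, Sln, Kdm5d, the mutated genes and the cluster neighbours were named after their values were seen. Alternatives were other adjustments, FPKM minimums, thresholds, pseudocounts and scalings.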

Additional observations from a re-analysis of the deposited data

How the results depend on the processing

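Within each comparison, Benjamini-Hochberg adjustment alone, or with an FPKM minimum of 1 or 5, and a q threshold of 0.1 left the counts of called members at 4, 3 and 0 for double mutant against wild type, triple mutant against wild type and triple against double mutant. Over all genes adjustment within the comparison gave 446, 176 and 124 calls (420, 185 and 116 at the FPKM minimum of 5), against 346, 198 and 160, and the threshold of 0.1 gave 575, 357 and 253. With the statistic read as a z score, chosen after seeing the data, the counts of members were 1, 0 and 0, and those over all genes 9, 5 and 4. Without the joined Irx2 row, also chosen after seeing the data, the counts were 3, 3 and 0, and the median log2 fold change of the tested members for triple mutant against wild type went from 0.41 to 0.17, the value of Gja5. Under 5 other pseudocounts or scalings that median stayed between 0.37 and 0.41, and all 120 recomputed member fold changes kept their sign. No scaling moved a comparison by more than 0.04 on the log2 scale. Over the adjustments other than the z score, q of the called members lay between 0.00326 and 0.0114. No paired analysis was possible because the file gives 1 value per group, and for the same reason no sample could be left out.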
